A study of Mus musculus with 12 samples.

Results

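The genes described here make, import, move and sense cholesterol. A set of 37 mouse genes of cholesterol synthesis, uptake and control by the sterol regulatory element-binding proteins (SREBPs) was listed by symbol. Of these, 32 had a probe set annotated to their symbol, 1 each, among 19505 genes measured on the array. Acat2, Tm7sf2, Srebf1, Soat1 and Nr1h2 had none under those symbols and were not analysed here. The members were chosen by pathway role. The rule uses no array values, but the list was drawn up with earlier results of these data known.

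Cells make cholesterol from acetyl-CoA through the mevalonate pathway, which ends in farnesyl diphosphate, and then through the sterol branch, which runs from squalene over lanosterol to cholesterol. When membrane sterol is low, the escort protein Scap carries SREBP2, encoded by Srebf2, out of the endoplasmic reticulum, and the released factor activates genes of synthesis and uptake. Insig proteins hold the complex back when sterol is plentiful. In the adrenal gland the cortex uses cholesterol as the starting material of steroid hormones, whereas chromaffin cells of the medulla make catecholamines and release adrenaline when blood glucose falls.

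Adrenal medullae were dissected from male C57Bl6 mice that were either germ-free, meaning raised without microbes, or normally colonized. After a fast of 3 h, each mouse received human insulin at 2 IU/kg or the same volume of saline into the peritoneum, and it was killed 90 min later. The study asked how the response to insulin-induced hypoglycemia differs with gut colonization. The 4 groups were germ-free mice given insulin, germ-free mice given saline, colonized mice given insulin and colonized mice given saline. Each group had 3 animals with 1 Affymetrix array each, no age of the mice is given, and precision is limited by having 3 arrays a group. Values are log2 intensities, so a difference of 1 is a doubling. A gene was called when limma's moderated test, fitted on all 19572 annotated probe sets, gave a Benjamini-Hochberg adjusted p under 0.05. Levels of different genes cannot be compared, because each probe set has its own affinity.

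Markers of the cortex were detected in every array, although the label is medulla. The 10 measured markers of the adrenal cortex averaged 12.53 to 12.59 in germ-free and 12.06 to 12.48 in colonized arrays, and none had a mean under 7.71, the 95th percentile of the means of the array's 5222 negative control rows. The 12 measured chromaffin markers averaged 10.07 to 11.03 in germ-free and 10.83 to 11.53 in colonized arrays. All 12 had a mean germ-free effect below 0 and 8 were called lower in limma. Markers of other tissues were detected too and moved with the groups. The 9 measured adipocyte markers averaged 8.69 to 10.44 in germ-free and 5.88 to 10.23 in colonized arrays, and the 9 measured hepatocyte markers averaged 7.46 to 10.49 in germ-free and 6.03 to 11.27 in colonized arrays. Adipoq, the adipocyte hormone adiponectin, lay between 10.02 and 11.78 in germ-free arrays and between 4.03 and 11.80 in colonized arrays. Intestinal markers averaged 8.41 in the germ-free saline group and 5.12 to 5.22 in the other groups. Pituitary markers averaged 7.28 in the germ-free insulin group and 5.19 to 5.51 in the other groups, and 5 of 7 were called higher in germ-free mice after insulin. The median of the negative control rows was 5.30 to 5.54 in germ-free and 4.70 to 4.83 in colonized arrays, without overlap. In such bulk tissue, fewer cells of a type and less RNA per cell cannot be told apart. Colonized saline animal 2 stood apart from its group. It had the highest hepatocyte mean of all arrays and the lowest cortex mean, and 26 of the 32 members were at their group's lowest value in it, where 43.9% of all genes were. Values without it are given beside the results that it changes most.

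**Figure D1:**
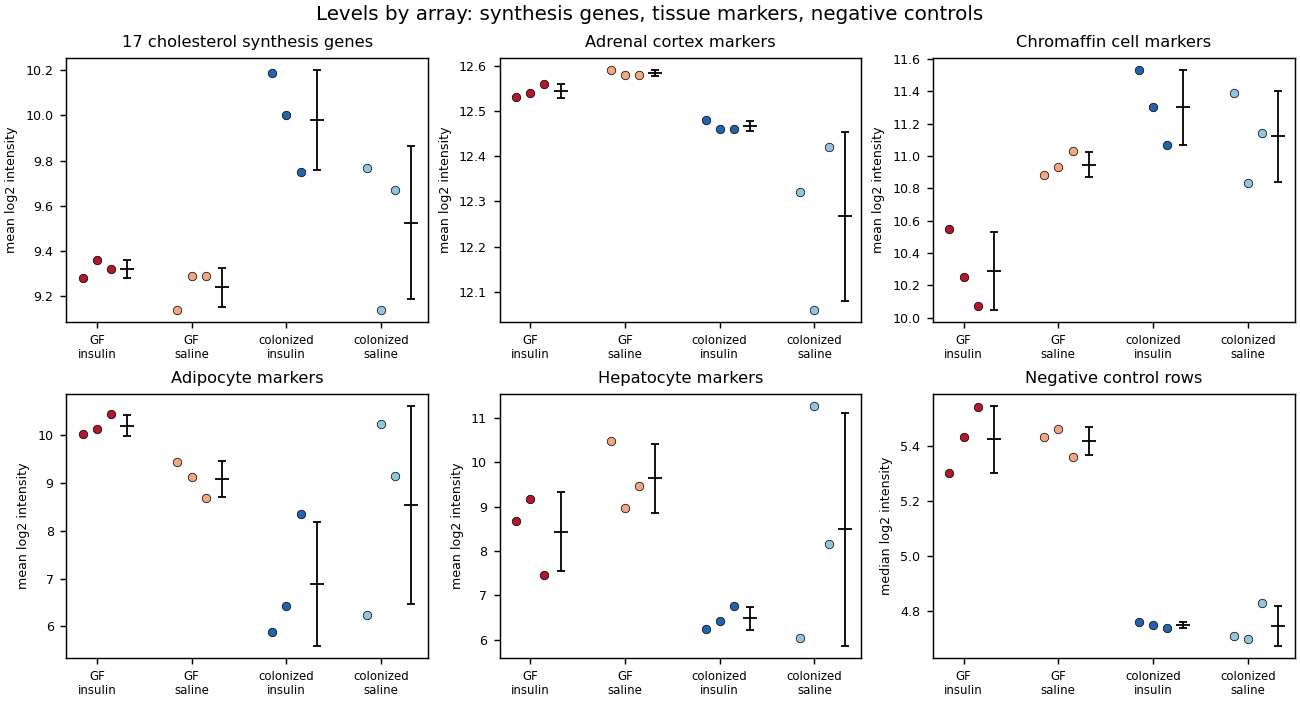
Mean log2 intensity of the 17 measured cholesterol synthesis genes and of marker lists for adrenal cortex, chromaffin cells, adipocytes and hepatocytes, and median of the negative control rows, for each array (points) with the group mean and SD (bars, n = 3). Synthesis genes sit between 9.14 and 9.36 in all 6 germ-free arrays and between 9.67 and 10.19 in 5 of 6 colonized arrays, with colonized saline animal 2 at 9.14, and negative controls also separate the colonization states.

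Cholesterol synthesis genes were lower in germ-free than in colonized adrenal medulla. Averaged over both treatments, 15 of the 32 members fell and none rose, against 17.6% of all probe sets called in either direction, 11.5% lower and 6.14% higher. The 15 were 10 of the 17 synthesis enzymes, the regulators Srebf2 and Scap, and 3 of 7 genes of sterol transport. Their falls ranged from -0.23 to -1.12 on the log2 scale. Over all 32 members, 25 had a value below 0 and 7 above, where 43.7% of all probe sets were above 0, and the median change was -0.31, where the median over all genes was -0.03. The chromaffin markers fell in the same comparison, 8 of 12 called lower with a median of -0.58, and the adipocyte markers had 9 of 9 values above 0 with a median of 1.70 and 2 called higher. Without colonized saline animal 2, 20 members fell and 1 rose, against 25.1% of all probe sets called. In 8 members every germ-free array lay below every colonized array, which held for 5.49% of all probe sets. The plot of germ-free effects shows lower calls and no higher ones after either injection.

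**Figure D2:**
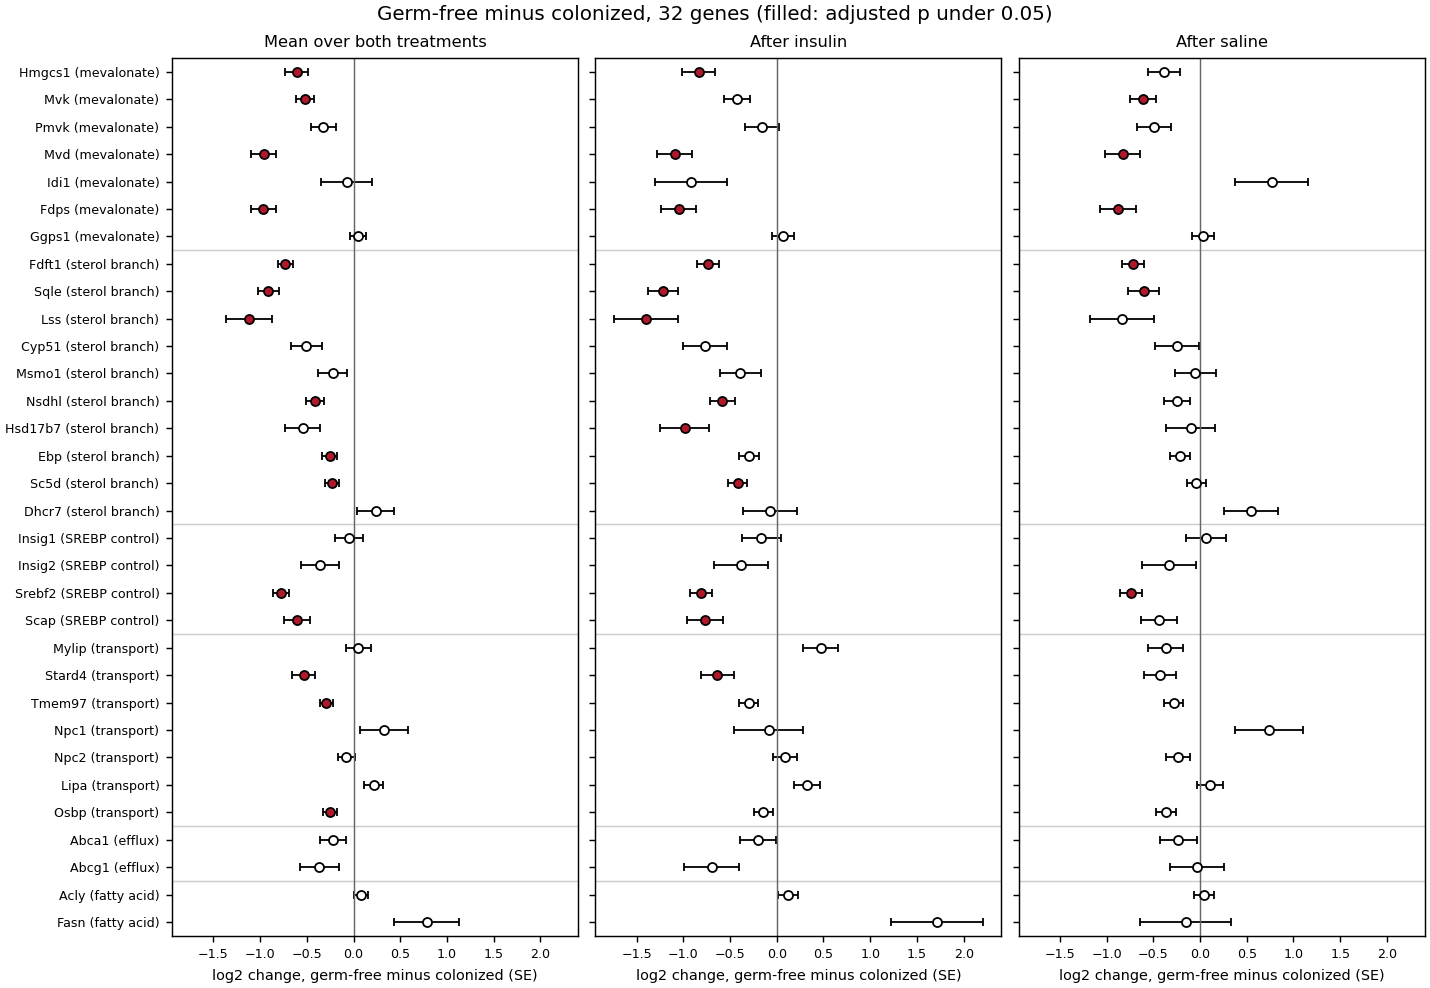
Log2 change, germ-free minus colonized, for each of the 32 measured genes (points, filled where called at limma adjusted p under 0.05, with SE bars), as the mean over both treatments, after insulin and after saline. Called genes are all on the negative side, 15 for the mean, 12 after insulin and 6 after saline, and Fasn lies farthest to the positive side for the mean and after insulin.

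Srebf2, the gene for the transcription factor that switches on the pathway, was among the most evenly shifted members. It had log2 intensities of 10.53, 10.50 and 10.45 in germ-free insulin arrays, 10.23, 10.38 and 10.49 in germ-free saline arrays, 11.29, 11.32 and 11.30 in colonized insulin arrays, and 11.24, 10.85 and 11.22 in colonized saline arrays. All germ-free values lay below all colonized values, and the colonized insulin arrays lay close together. The mean germ-free effect was -0.77 ± 0.08 (SE), 1.71-fold lower, with a limma adjusted p of 0.000247, and Srebf2 was also called after insulin (-0.81 ± 0.12, limma adjusted p = 0.0034) and after saline (-0.74 ± 0.12, limma adjusted p = 0.00552).

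Scap, the sterol-sensing escort of SREBP2, had values of 8.94, 9.10 and 9.05 in germ-free insulin arrays and 9.14, 9.17 and 9.26 in germ-free saline arrays. Colonized arrays gave 9.90, 9.87 and 9.62 after insulin and 9.91, 9.06 and 9.92 after saline. Only colonized saline animal 2 fell among the germ-free values. The mean germ-free effect on Scap was -0.60 ± 0.14 (limma adjusted p = 0.0109), and without that animal it was -0.75 ± 0.07. The retention proteins did not pass the test. Insig1 lay between 10.13 and 10.55 in germ-free and between 9.53 and 10.86 in colonized arrays, while Insig2 lay between 6.51 and 7.54 in germ-free and between 6.70 and 7.96 in colonized arrays. Both ranges overlap widely. Insig1 read 10.31, 10.55 and 10.50 in germ-free insulin arrays, 10.21, 10.17 and 10.13 in germ-free saline arrays, 10.86, 10.67 and 10.32 in colonized insulin arrays, and 10.49, 9.53 and 10.30 in colonized saline arrays. Insig2 was under the negative control percentile of 7.71 on 11 of 12 arrays. Without animal 2 the mean germ-free effect on Insig2 was called, at -0.53 ± 0.16 (limma adjusted p = 0.0299).

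The mevalonate pathway had 4 lower calls among 7 measured enzymes. Hmgcs1, the cytosolic synthase that makes HMG-CoA, read 11.13, 11.34 and 11.24 in germ-free insulin arrays, 11.05, 11.24 and 11.15 in germ-free saline arrays, 12.34, 11.95 and 11.91 in colonized insulin arrays, and 11.80, 11.10 and 11.70 in colonized saline arrays. Again animal 2 was the only colonized value inside the germ-free range. Its mean germ-free effect was -0.61 ± 0.12 (limma adjusted p = 0.00643). Mvk, mevalonate kinase, had 7.19, 7.21 and 7.08 in germ-free insulin arrays, 6.76, 7.18 and 6.96 in germ-free saline arrays, 7.63, 7.65 and 7.47 in colonized insulin arrays, and 7.77, 7.30 and 7.67 in colonized saline arrays. Its states did not overlap. Mvk fell by 0.52 ± 0.10 (limma adjusted p = 0.00467), but all its arrays except 1 were under the negative control percentile, so its size is uncertain. Mvd, which decarboxylates mevalonate diphosphate to isopentenyl diphosphate, had 7.35, 7.54 and 7.10 in germ-free insulin arrays, 7.32, 7.55 and 7.28 in germ-free saline arrays, 8.72, 8.46 and 8.09 in colonized insulin arrays, and 8.40, 7.85 and 8.39 in colonized saline arrays. The states did not overlap, although all 6 germ-free values lay under that percentile. The fall of Mvd was 0.96 ± 0.13 (limma adjusted p = 0.000875), 1.95-fold.

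Fdps, the farnesyl diphosphate synthase at the end of the pathway, stood at 8.09, 7.87 and 7.87 in germ-free insulin arrays, 7.64, 7.86 and 7.97 in germ-free saline arrays, 9.39, 9.09 and 8.51 in colonized insulin arrays, and 8.83, 8.55 and 8.72 in colonized saline arrays. Every colonized value was higher than every germ-free one. The mean germ-free effect on Fdps was -0.96 ± 0.13 (limma adjusted p = 0.000845). Not all steps followed. Ggps1, which extends farnesyl to geranylgeranyl diphosphate for protein prenylation and not for sterols, lay between 9.13 and 9.36 in germ-free and between 9.01 and 9.40 in colonized arrays. Phosphomevalonate kinase, Pmvk, lay between 7.25 and 8.25 in germ-free and between 7.81 and 8.37 in colonized arrays and was not called.

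The sterol branch had 6 lower calls among 10 measured enzymes, and its first 3 steps, from squalene synthesis to lanosterol, were all called. Fdft1, squalene synthase, commits farnesyl diphosphate to sterols. Its values were 9.76, 9.76 and 9.70 in germ-free insulin arrays, 9.37, 9.47 and 9.64 in germ-free saline arrays, 10.66, 10.49 and 10.29 in colonized insulin arrays, and 10.21, 10.32 and 10.10 in colonized saline arrays. The states were fully separate, with animal 2 the highest of its group. Fdft1 fell by 0.73 ± 0.08 (limma adjusted p = 0.000363). Sqle, the epoxidase that oxidizes squalene, measured 8.65, 8.49 and 8.38 in germ-free insulin arrays, 8.27, 8.57 and 8.66 in germ-free saline arrays, 10.02, 9.72 and 9.44 in colonized insulin arrays, and 9.22, 8.87 and 9.22 in colonized saline arrays. Its states were separate as well, with the widest distance after insulin. The mean germ-free effect on Sqle was -0.91 ± 0.12 (limma adjusted p = 0.000555).

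Lss, lanosterol synthase, closes the first sterol ring system and had the most negative mean effect of the members. It read 9.29, 9.42 and 9.34 in germ-free insulin arrays, 8.77, 9.36 and 9.34 in germ-free saline arrays, 11.19, 10.73 and 10.32 in colonized insulin arrays, and 10.53, 9.03 and 10.43 in colonized saline arrays. All colonized arrays other than animal 2 were above all germ-free arrays. The fall was 1.12 ± 0.24 (limma adjusted p = 0.00884), 2.17-fold, and it was 1.36 ± 0.15 without animal 2.

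The later steps called for the mean over treatments had smaller changes than Fdft1, Sqle and Lss. Nsdhl, a dehydrogenase that removes methyl groups at carbon C-4, had 9.89, 9.85 and 9.90 in germ-free insulin arrays, 9.65, 9.77 and 9.78 in germ-free saline arrays, 10.68, 10.53 and 10.18 in colonized insulin arrays, and 10.15, 9.76 and 10.03 in colonized saline arrays. Only animal 2 overlapped with the germ-free range, and the mean germ-free effect was -0.41 ± 0.10 (limma adjusted p = 0.0124). The sterol isomerase Ebp lay between 8.54 and 8.69 in germ-free and between 8.72 and 9.02 in colonized arrays, and the desaturase Sc5d between 11.13 and 11.38 in germ-free and between 11.24 and 11.76 in colonized arrays. Ebp fell by 0.26 ± 0.08 (limma adjusted p = 0.0403) and Sc5d by 0.23 ± 0.07 (limma adjusted p = 0.0482), both close to the threshold. Leaving out 1 array at a time kept these calls in 3 and 2 of 12 fits. Cyp51, Msmo1 and Hsd17b7, which act between lanosterol and the last reductions, were not called for the mean over treatments. With animal 2 left out they were called, at -0.65, -0.38 and -0.72 in the same order. Fdft1 was at -0.70 in that fit. Cyp51 read 9.68, 9.90 and 10.01 in germ-free insulin arrays, 9.47, 9.69 and 9.82 in germ-free saline arrays, 10.97, 10.67 and 10.25 in colonized insulin arrays, and 10.34, 9.34 and 10.03 in colonized saline arrays. Dhcr7, the last reductase of one of the routes to cholesterol, lay between 12.10 and 12.42 in all germ-free arrays and between 12.06 and 12.32 in 5 colonized arrays, with animal 2 at 10.82.

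**Figure D3:**
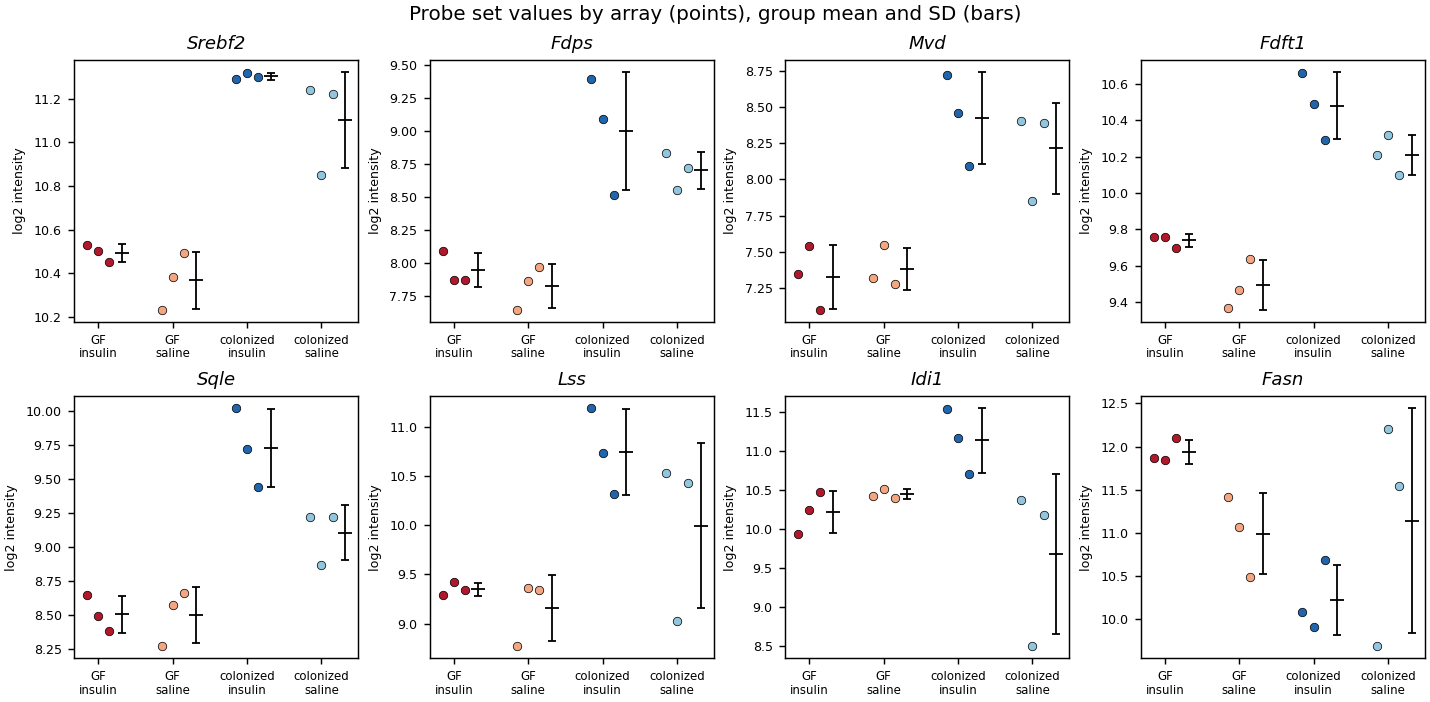
Log2 intensity of Srebf2, 6 synthesis enzymes and Fasn in every array (points) with group means and SD (bars, n = 3). Srebf2, Fdps, Mvd, Fdft1 and Sqle separate all germ-free from all colonized arrays, Lss does so except for colonized saline animal 2, Idi1 is highest in colonized insulin arrays, and Fasn runs the other way, highest in germ-free insulin arrays apart from colonized saline animal 2.

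Among genes of uptake and transport inside the cell, 3 of 7 were lower in germ-free mice. Stard4, a soluble sterol carrier, had 7.45, 7.63 and 7.72 in germ-free insulin arrays, 7.50, 7.62 and 7.76 in germ-free saline arrays, 8.49, 8.07 and 8.14 in colonized insulin arrays, and 8.37, 7.66 and 8.14 in colonized saline arrays. Animal 2 alone overlapped, and Stard4 fell by 0.53 ± 0.12 (limma adjusted p = 0.0119). Tmem97, a sterol-responsive membrane protein that binds Npc1, was lower by a small but even amount, -0.29 ± 0.07 (limma adjusted p = 0.0152), with 8.79 to 8.93 in germ-free and 9.03 to 9.28 in colonized arrays. Osbp, which exchanges sterol for phosphoinositide at the Golgi, fell by 0.25 ± 0.07 (limma adjusted p = 0.0351), and this call held in 3 of 12 fits that left out 1 array. It lay between 9.13 and 9.35 in germ-free and between 9.29 and 9.67 in colonized arrays.

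The genes that release cholesterol from lysosomes were not called. Npc1 lay between 8.51 and 8.91 in germ-free arrays and between 8.41 and 8.91 in 5 colonized arrays, with animal 2 at 6.88. Npc2 lay between 8.31 and 8.58 in germ-free and between 8.30 and 8.90 in colonized arrays, and the acid lipase Lipa between 9.76 and 10.16 in germ-free and between 9.54 and 10.05 in colonized arrays. Mylip, a ubiquitin ligase that marks lipoprotein receptors for destruction, and the efflux pumps Abca1 and Abcg1 were not called either. Mylip read 7.81, 8.05 and 8.22 in germ-free insulin arrays, 7.90, 7.66 and 7.61 in germ-free saline arrays, 7.41, 7.53 and 7.73 in colonized insulin arrays, and 7.73, 8.53 and 8.00 in colonized saline arrays. Abcg1 read 6.90, 7.08 and 6.91 in germ-free insulin arrays, 7.44, 7.34 and 7.18 in germ-free saline arrays, 7.96, 7.43 and 7.59 in colonized insulin arrays, and 8.01, 6.49 and 7.55 in colonized saline arrays. Abcg1 was dim, under the negative control percentile on 10 of 12 arrays. Without animal 2, Abcg1 was called lower for the mean germ-free effect, at -0.58 ± 0.12 (limma adjusted p = 0.00406). After insulin, that fit called Abcg1 lower, at -0.70 ± 0.15 (limma adjusted p = 0.0112), and Mylip higher, at 0.47 ± 0.14 (limma adjusted p = 0.0394).

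Lower calls were present after either injection. The 2 comparisons share no arrays, but they share the fit's estimate of the spread. In both, the negative control rows were higher in germ-free arrays. After insulin, 12 members were lower and none higher in germ-free mice, against 7.77% of all probe sets called, 5.15% lower and 2.62% higher. The chromaffin markers fell in this comparison as well, 9 of 12 called lower with a median of -1.04, where the members' median was -0.40, and 6 of 9 adipocyte markers rose, with a median of 3.51 over the 9. Lss had the most negative value, -1.40 ± 0.34 (limma adjusted p = 0.029), followed by Sqle at -1.22 ± 0.16 (limma adjusted p = 0.00302), Mvd at -1.09 ± 0.19 and Fdps at -1.05 ± 0.19. Hsd17b7, a reductase of the C-4 demethylation complex, was called in this comparison at -0.99 ± 0.26 (limma adjusted p = 0.0419). It read 8.58, 8.82 and 8.73 in germ-free insulin arrays and 10.06, 9.63 and 9.39 in colonized insulin arrays. In the fits that left out 1 array, the calls of Mvd, Fdps, Fdft1, Sqle and Srebf2 held in 12 of 12, but that of Hsd17b7 in 5, that of Scap in 6 and that of Stard4 in 2. The other called members were Hmgcs1, Srebf2, Scap, Fdft1, Stard4, Nsdhl and Sc5d, at -0.42 to -0.83. In 19 members the germ-free insulin arrays lay wholly below the colonized insulin arrays, which held for 19.8% of all probe sets, and in 2 wholly above, which held for 12.0%.

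After saline, 6 members were lower and none higher, against 6.90% of all probe sets called, 4.08% lower and 2.82% higher. They were Fdps at -0.88 ± 0.19 (limma adjusted p = 0.0203), Mvd at -0.83 ± 0.19, Srebf2 at -0.74 ± 0.12, Fdft1 at -0.72 ± 0.12, Mvk at -0.61 ± 0.14 and Sqle at -0.60 ± 0.16 (limma adjusted p = 0.0474). With 1 array left out, Fdft1 and Srebf2 were called in 12 of 12 fits and Sqle in 3. In this comparison none of the 12 chromaffin markers was called, with a median of -0.10, and none of the 9 adipocyte markers, with a median of 0.38. All 10 intestinal markers were called higher, with a median of 3.41. Of the 10 cortex markers 1 was called higher, with a median of 0.37 over the 10. Lss stood at -0.84 ± 0.34 (limma adjusted p = 0.161), and the members with the most positive values were Idi1 at 0.77 ± 0.39 and Npc1 at 0.74 ± 0.37, none of them called. In 9 members the germ-free saline arrays lay wholly below the colonized saline arrays, against 16.4% of all probe sets, and in 1 wholly above, against 11.0%. Without animal 2 the count of lower calls was 12, against 9.90% of all probe sets called, and it included Lss at -1.32 ± 0.23, Hmgcs1, Scap, Stard4, Tmem97 and Osbp, while Idi1 stood at 0.18 ± 0.21 and Npc1 at 0.15 ± 0.16. With the fit restricted to the saline arrays, 1 member was called, Fdps (limma adjusted p = 0.0443). That fit estimates the spread from the saline arrays alone, so its count cannot be set against the others. The test of the difference between the germ-free effects after insulin and after saline, which is also the difference of the insulin effects, called no member.

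The adipocyte markers moved with colonization, and the calls were refitted with their mean as a covariate. Of the 15 calls for the mean germ-free effect, 5 remained, against 7.74% of all probe sets called, namely Srebf2 at -0.65 (limma adjusted p = 0.00678), Fdft1 at -0.65, Sqle at -0.67, Fdps at -0.67 and Mvd at -0.68. After insulin no member was called in that fit, and 0.148% of all probe sets were, with Srebf2 at -0.60, Fdft1 at -0.61 and Sqle at -0.81. After saline it called 7 members lower and 1 higher, against 9.43% of all probe sets. With the chromaffin marker mean as covariate no member was called for the mean or after insulin, where 0.695% and 0.00511% of all probe sets were, with Srebf2 at -0.55 (limma adjusted p = 0.092) and Lss at -0.14 for the mean. After saline the chromaffin covariate left 8 members called lower, against 8.44% of all probe sets. With the cortex marker mean 21 members were called for the mean, all lower, 21 after insulin, 19 of them lower, and 7 after saline, all lower. That fit called 3023, 2929 and 764 of all 19572 probe sets in these comparisons, in the same order. The fit without a covariate called 3454, 1521 and 1351. The cortex mean had an SD of 0.19 in colonized saline arrays, with animal 2 at 12.06, and of 0.003 to 0.015 in the other groups. The cortex adjustment therefore rests largely on animal 2. With the negative control median as covariate, which separates the colonization states completely, no member and no other gene was called, and 30 of 32 members were below 0 for the mean effect. The group means of these covariates differ with colonization, so their part in the result and that of colonization cannot be told apart.

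Within the colonized saline group the adipocyte marker means were 6.23, 10.23 and 9.15 for animals 1, 2 and 3, the last 2 within the germ-free range. The chromaffin marker means were 11.39, 10.83 and 11.14 for the same animals. Only that of animal 2 lay within the germ-free range of 10.07 to 11.03. The values of these single arrays were not tested. In animal 3, Lss at 10.43, Srebf2 at 11.22, Fdps at 8.72 and Sqle at 9.22 were above every germ-free array. Idi1, at 10.18 in animal 3, lay within the germ-free range of 9.94 to 10.52. Srebf2, Fdps, Fdft1, Mvd and Sqle separate all germ-free from all colonized arrays, so their place in animals 2 and 3 follows from that. In animal 2, Srebf2 at 10.85, Fdps at 8.55, Fdft1 at 10.32 and Mvd at 7.85 were also above every germ-free array, while Lss, Hmgcs1, Scap and Stard4 were not.

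Fasn, the fatty acid synthase of lipogenesis, had the most positive germ-free value of the members after insulin and for the mean. It read 11.87, 11.84 and 12.10 in germ-free insulin arrays, 11.41, 11.07 and 10.48 in germ-free saline arrays, 10.08, 9.90 and 10.68 in colonized insulin arrays, and 9.68, 12.20 and 11.54 in colonized saline arrays. Germ-free insulin arrays lay above all colonized insulin arrays, while the saline groups overlapped fully. The germ-free effect was 1.72 ± 0.49 after insulin (limma adjusted p = 0.0528) and 0.78 ± 0.35 for the mean (limma adjusted p = 0.145), so neither passed, but both did without animal 2, with adjusted p of 0.0126 and 0.0222 in limma. Fasn was highest in colonized saline animal 2, where the adipocyte marker mean was 10.23, and lowest in colonized saline animal 1, where that mean was 6.23. The adipocyte mean itself was highest in germ-free insulin animal 12, at 10.44, and lowest in colonized insulin animal 4, at 5.88. Fasn read 12.10 and 10.08 in these. With the adipocyte mean as covariate the germ-free effect on Fasn was -0.28 for the mean and -0.10 after insulin. The cause of the Fasn differences was not tested. Acly, which makes cytosolic acetyl-CoA from citrate for both fatty acids and sterols, lay between 12.49 and 12.71 in germ-free and between 12.28 and 12.62 in colonized arrays.

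Other genes of the same pathways were listed in addition to the members. Of 16 other SREBP-linked and lipogenic genes, 3 rose and 2 fell for the mean germ-free effect, 31.2% of the list, where 17.6% of all probe sets were called, 6.14% higher and 11.5% lower. The adipocyte markers had 9 of 9 values above 0 in this comparison, with a median of 1.70. Those that rose were Thrsp, a lipogenic regulator, at 1.38 ± 0.40 (limma adjusted p = 0.0323), Acaca, the acetyl-CoA carboxylase of fatty acid synthesis, at 1.17 ± 0.32 and the fatty acid elongase Elovl6 at 0.64 ± 0.13. After insulin the germ-free effect was 2.45 ± 0.56 for Thrsp, 2.24 ± 0.45 for Acaca and 1.17 ± 0.18 for Elovl6. The mean effects of Thrsp and Acaca turned negative with the chromaffin or negative control covariate, and that of Elovl6 with the negative control covariate. Acaca read 10.36, 10.61 and 10.91 in germ-free insulin arrays and 8.03, 8.30 and 8.84 in colonized insulin arrays. Aacs, which activates acetoacetate for sterol synthesis, fell by 0.50 ± 0.11 and Mid1ip1, an activator of acetyl-CoA carboxylase, by 0.73 ± 0.08 (limma adjusted p = 0.000243).

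In both further lists the share called was below the 17.6% of all probe sets. Of 12 other genes of sterol synthesis and SREBP processing, Coq2, which uses mevalonate products to build ubiquinone, was the only one called, 8.33% of the list, at -0.37 ± 0.08 (limma adjusted p = 0.00707). Of 20 other genes of uptake, transport and oxysterols, 3 were called. Lrp8, a receptor of the lipoprotein receptor family, fell by 1.03 ± 0.25 and Osbpl2, an oxysterol-binding protein relative, by 0.46 ± 0.12, while Lipe, the hormone-sensitive lipase that also frees cholesterol from its esters, rose by 0.64 ± 0.16. The measured genes of steroid hormone synthesis are the 10 cortex markers themselves, so they restate the cortex marker level. Of these, 2 were called, Nr5a1 and Fdx1, and the others were not. Nr5a1, the factor that directs steroidogenic gene expression, rose by 0.57 ± 0.10 (limma adjusted p = 0.00259) and Fdx1, which passes electrons to mitochondrial steroidogenic enzymes, by 0.36 ± 0.11.

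The promoters of members that moved together are shown because the pathway is known to be controlled there, by SREBPs with the help of NF-Y at CCAAT boxes and Sp1 at GC boxes. Windows of 300 bases, from 250 before to 50 after the transcription start, were taken from RefSeq on build GRCm38.p6 and existed for 26 of the 32 members. Those of 4 genes that were lower in germ-free mice are printed in the direction of transcription, for Hmgcs1 (chr13:119690101-119690400, plus strand), Mvd (chr8:122443373-122443672, minus strand), Lss (chr10:76531355-76531654, plus strand) and Srebf2 (chr15:82147019-82147318, plus strand). Capitals mark CCAAT on either strand, read as ATTGG on the other strand, and 1 match of the sterol regulatory element letters TCACNCCAC.
Hmgcs1: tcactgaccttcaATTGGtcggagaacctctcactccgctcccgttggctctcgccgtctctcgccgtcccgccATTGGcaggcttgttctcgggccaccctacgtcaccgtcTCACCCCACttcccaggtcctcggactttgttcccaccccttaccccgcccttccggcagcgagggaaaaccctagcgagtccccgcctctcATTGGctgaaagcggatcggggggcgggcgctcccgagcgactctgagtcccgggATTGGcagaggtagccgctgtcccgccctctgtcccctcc
Mvd: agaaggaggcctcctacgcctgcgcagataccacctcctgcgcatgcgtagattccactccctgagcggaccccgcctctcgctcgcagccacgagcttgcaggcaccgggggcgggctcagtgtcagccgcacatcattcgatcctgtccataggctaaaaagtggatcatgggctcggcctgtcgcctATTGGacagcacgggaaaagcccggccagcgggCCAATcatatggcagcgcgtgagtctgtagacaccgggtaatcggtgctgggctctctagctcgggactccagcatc
Lss: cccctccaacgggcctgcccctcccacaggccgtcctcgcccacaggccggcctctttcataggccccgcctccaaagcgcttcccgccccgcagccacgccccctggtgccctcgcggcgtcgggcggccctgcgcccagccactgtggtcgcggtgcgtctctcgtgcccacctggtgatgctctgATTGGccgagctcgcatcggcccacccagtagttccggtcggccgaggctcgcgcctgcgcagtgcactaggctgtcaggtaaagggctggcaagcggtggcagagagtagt
Srebf2: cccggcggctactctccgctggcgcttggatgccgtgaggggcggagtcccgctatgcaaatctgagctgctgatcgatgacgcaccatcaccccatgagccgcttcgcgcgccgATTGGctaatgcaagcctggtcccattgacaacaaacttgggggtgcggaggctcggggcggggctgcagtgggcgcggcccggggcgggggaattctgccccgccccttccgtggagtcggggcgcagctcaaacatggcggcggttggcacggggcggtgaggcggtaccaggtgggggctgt

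Letters CCAAT, on either strand, occurred in the windows of 24 of 26 members, 92.3%, and of 42.2% of the 15691 array genes with a window. Abca1 and Scap had none. The letters GGGCGG on either strand, a GC box, occurred in 23 of 26 members and in 51.2% of array genes, and the members' windows were richer in G and C, with a median of 62.7% against 57.0%. CCAAT did not mark the genes that fell, since 10 of 11 members called lower and 14 of 15 members not called lower had it. TCACNCCAC was found in 1 member, Hmgcs1, beginning 137 bases before the start, and in 1.43% of array genes. These matches describe letters in the windows and say nothing of binding.

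Insulin itself called no member in either colonization state. In germ-free mice, 0 of 32 members passed in limma, against 0.439% of all probe sets, and 1 member had an unadjusted p under 0.05. That gene was Pmvk, which read 7.85, 7.90 and 8.25 in germ-free insulin arrays and 7.83, 7.45 and 7.25 in germ-free saline arrays. Its colonized arrays gave 8.21, 8.14 and 8.10 after insulin and 7.81, 8.37 and 7.81 after saline. The change in germ-free mice was 0.49 ± 0.18 for Pmvk (limma adjusted p = 0.448) and 0.95 ± 0.49 for Fasn (limma adjusted p = 0.671), the member with the most positive value. Abcg1 at -0.36 ± 0.29, Mylip at 0.30 ± 0.19, Insig1 at 0.29 ± 0.21, Fdft1 at 0.25 ± 0.12, Idi1 at -0.23 ± 0.39 and Cyp51 at 0.20 ± 0.24 came next in size. The median change over members was 0.07, and 20 of 32 were above 0, where 51.6% of all probe sets were. Germ-free insulin arrays lay wholly above germ-free saline arrays in 6 members and wholly below in 3, against 9.55% and 10.1% of all probe sets. The synthesis genes as a whole averaged 9.32 ± 0.04 after insulin and 9.24 ± 0.09 after saline in germ-free mice (SD, n = 3 each).

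In colonized mice, 0 of 32 members passed in limma, against 0.153% of all probe sets, and 11 had an unadjusted p under 0.05, where 11.8% of all probe sets did. Of the 17 synthesis enzymes, 16 were above 0, where 51.0% of all probe sets were, with a median change of 0.43, and they averaged 9.98 ± 0.22 after insulin and 9.53 ± 0.34 after saline (SD, n = 3 each). Much of this rested on animal 2. Without it the median change over the members was 0.02, where it was 0.21 with it, and the median of the synthesis enzymes was 0.27 with 13 of 17 above 0. Colonized insulin arrays lay wholly above colonized saline arrays in 7 members and wholly below in 1, against 7.53% and 6.55% of all probe sets.

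**Figure D4:**
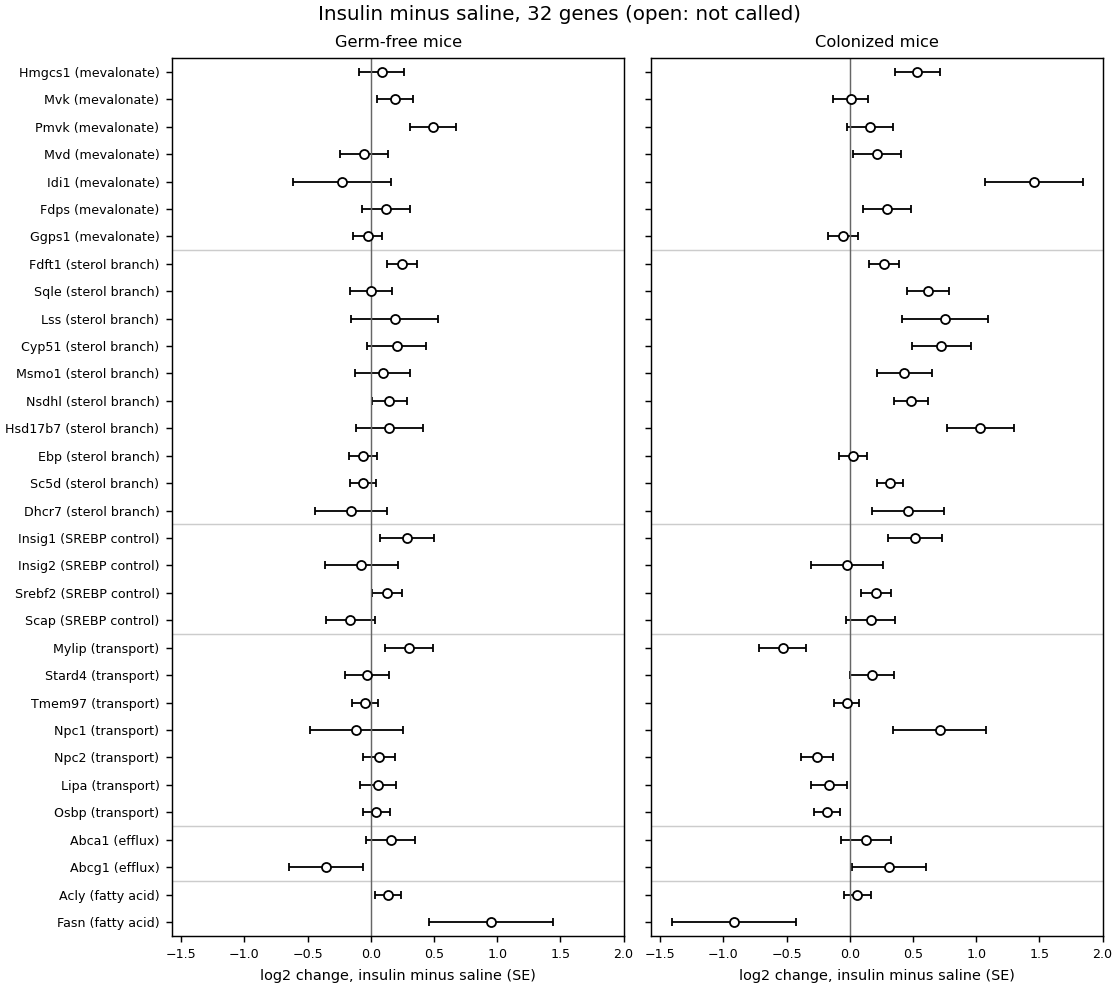
Log2 change, insulin minus saline, for each of the 32 measured genes in germ-free and in colonized mice (points with SE bars, open because none was called at limma adjusted p under 0.05). In colonized mice 16 of 17 synthesis genes lie above 0, with Idi1 and Hsd17b7 farthest out, and in germ-free mice most lie near 0.

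Idi1, the isomerase that makes dimethylallyl diphosphate, had the most positive insulin value in colonized mice. It read 9.94, 10.25 and 10.48 in germ-free insulin arrays, 10.43, 10.52 and 10.40 in germ-free saline arrays, 11.54, 11.17 and 10.71 in colonized insulin arrays, and 10.37, 8.50 and 10.18 in colonized saline arrays. All colonized insulin arrays were above all other arrays. The insulin change was 1.46 ± 0.39 in colonized mice (limma adjusted p = 0.208) and -0.23 ± 0.39 in germ-free mice, and without animal 2 it was 0.86 ± 0.21 in colonized mice. Hsd17b7 followed with 1.03 ± 0.26 (limma adjusted p = 0.185), or 0.69 ± 0.20 without animal 2, and read 10.06, 9.63 and 9.39 in colonized insulin arrays and 8.99, 7.97 and 9.03 in colonized saline arrays. Fasn had -0.92 ± 0.49, Lss 0.75 ± 0.34, Cyp51 0.73 ± 0.24, Npc1 0.71 ± 0.37 and Hmgcs1 0.54 ± 0.18. Without animal 2, Fasn had -0.39 ± 0.44, Lss 0.27 ± 0.23 and Npc1 0.12 ± 0.16. Sqle had 0.62 ± 0.16 (limma adjusted p = 0.205). Sqle in colonized insulin arrays, at 9.44 to 10.02, was above colonized saline arrays, at 8.87 to 9.22.

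The insulin effects of the 2 colonization states were compared directly as an interaction. In limma 0 of 32 members passed, against 0.0358% of all probe sets, and 6 had an unadjusted p under 0.05, where 9.97% of all probe sets did. The difference, germ-free minus colonized, was -1.68 ± 0.55 for Idi1 (limma adjusted p = 0.349) and -1.09 ± 0.28 without animal 2. It was -0.88 ± 0.37 for Hsd17b7, -0.83 ± 0.52 for Npc1 and -0.62 ± 0.23 for Sqle, and without animal 2 it was -0.54 ± 0.26, -0.23 ± 0.21 and -0.50 ± 0.22 for the same genes. The difference was above 0 for none of the 10 genes of the sterol branch, where 49.6% of all probe sets were above 0. None of the 12 chromaffin markers was above 0 either, with a median of -0.79 against -0.45 for the sterol branch. With the chromaffin covariate 14 of the 17 synthesis genes were above 0, and with the adipocyte covariate 11 were. Averaged over both states, insulin called 0 of 32 members in limma, against 0.419% of all probe sets, with 9 at an unadjusted p under 0.05, where 10.3% of all probe sets were. The most positive mean insulin values were 0.61 ± 0.27 for Idi1, 0.59 ± 0.19 for Hsd17b7, 0.47 ± 0.24 for Lss, 0.46 ± 0.17 for Cyp51, 0.40 ± 0.15 for Insig1, 0.32 ± 0.13 for Pmvk, 0.32 ± 0.10 for Nsdhl and 0.31 ± 0.12 for Sqle. The insulin contrast in colonized mice and the germ-free contrast after saline share the colonized saline arrays, so animal 2 enters both.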

How the data were processed

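Per the submitters' processing notes, the array values were made with RMA and compared with limma, without versions, and the label protocol names biotinylated cRNA. The deposited table holds log2 intensities of 28846 rows, already normalized by the authors, and the notes do not say whether all 12 arrays were normalized in 1 run. Rows were named through the platform annotation of the array, which gave 19572 probe sets 1 symbol and left 9274 rows unnamed. No filter on low values was used.

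A model with 4 group means was fitted to all named probe sets with limma 3.58.1 in R 4.3.3, with lmFit and eBayes, 8 residual degrees of freedom and 7 contrasts. Benjamini-Hochberg adjustment ran over all 19572 probe sets within a contrast. Animals are the replicates, each array being an individual sample. The fit was tested on simulated data. The members and lists were chosen with earlier results of these data known. Named with values are the members called in any contrast and the 8 with the largest absolute log2 change in each, with Srebf2, Insig1 and Insig2. Of the other lists, the genes called for the mean germ-free effect are named, and the rule's further genes there are left out. The alternatives were a dim filter, other normalizations, array weights, limma options, tissue covariates, restricted fits and leaving out each array.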

Additional observations from a re-analysis of the deposited data

Results flagged for a closer look

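For 5 members the insulin arrays went opposite ways in the 2 colonization states. Every germ-free insulin array lay on one side of the germ-free saline mean, and every colonized insulin array lay on the other side of the colonized saline mean. This held for 15.6% of the members and for 11.9% of all probe sets. The difference of the insulin effects, germ-free minus colonized, was 1.87 for Fasn, 0.83 for Mylip, 0.32 for Npc2, -0.62 for Dhcr7 and -0.67 for Abcg1. Without colonized saline animal 2 it was 1.34 for Fasn, 0.61 for Mylip, 0.21 for Npc2, -0.15 for Dhcr7 and -0.24 for Abcg1. In that fit the insulin change in colonized mice was -0.12 for Abcg1 and -0.0004 for Dhcr7. Both were below 0 in germ-free mice too, so their opposite directions rested on animal 2. Fasn, Mylip and Npc2 kept opposite signs. For the difference of the insulin effects over all arrays, the adipocyte markers had 9 of 9 values above 0, with a median of 2.52. None of the 5 members passed limma's interaction test, with adjusted p between 0.336 and 0.648. Outside the gene measurements, the median of the negative control rows was higher in germ-free than in colonized arrays, by 0.67 on the log2 scale.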

How the results depend on the processing

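The counts of members called for the germ-free effects changed with the covariates and the scaling. For the mean effect (15 called), the count was 5 with the adipocyte covariate, 0 with the chromaffin covariate, 0 with the negative control covariate, which was added after seeing the data, and 8 at an adjusted p under 0.01, 13 after a second quantile normalization and 11 with median centring. After insulin (12 called) it was 21 with array weights, 21 with the cortex, 0 with the adipocyte, 0 with the chromaffin and 0 with the negative control covariate, 10 after a second quantile normalization, 8 with median centring, 5 at an adjusted p under 0.01, and 5 to 19 when 1 array was left out. After saline (6 called) it was 8 with the adipocyte, 8 with the chromaffin and 7 with the cortex covariate, 3 after a second quantile normalization, 4 with median centring, 12 with array weights, 1 with the compared groups alone, 0 with the negative control covariate, 2 at an adjusted p under 0.01, and 2 to 12 when 1 array was left out, the highest count being without colonized saline animal 2. The mean insulin effect had 3 calls with the chromaffin covariate, where 0.869% of all probe sets were called, and none otherwise. The difference of the insulin effects had 0 to 1 when 1 array was left out. The fit with 1 lacked colonized saline animal 1 and called 0.424% of all probe sets. For the mean germ-free effect, 12 members kept their call in all 12 such fits, all but Ebp, Osbp and Sc5d. Calls over all 19572 probe sets moved with the fits too, so a member count alone shows no change particular to the members. After insulin, 1521 probe sets were called in the main fit and 3727 with array weights. The cortex covariate gave 2929 there, the adipocyte covariate 29 and the chromaffin covariate 1. After saline the main fit called 1351 probe sets, array weights 2358 and the cortex covariate 764. A second quantile normalization called 15.7% of all probe sets for the mean, 7.02% after insulin and 5.63% after saline. Median centring called 16.5%, 6.84% and 6.12%, in the same order.

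Of 2015 refits of 86 single-gene changes, 47 changed sign, all with a covariate, and 262 lost a call. With the adipocyte covariate these were, for the difference of the insulin effects, Dhcr7 at 0.0039 and Abcg1 at 0.024, for the germ-free effect after insulin Idi1 at 0.21 and Fasn at -0.10, for insulin in germ-free mice Idi1 at 0.15, and for the mean germ-free effect Fasn at -0.28. With the cortex covariate, the difference of the insulin effects was 0.38 for Dhcr7, 0.55 for Npc1 and 0.19 for Abcg1, the insulin effect in colonized mice was -0.11 for Lss and -0.43 for Npc1, the mean germ-free effect was -0.016 for Fdx1, and the germ-free effect after saline was -0.93 for Idi1 and -1.08 for Npc1. With the chromaffin covariate, the difference of the insulin effects was 0.079 for Sqle, 0.069 for Hsd17b7, 0.34 for Dhcr7, -0.060 for Mylip, 0.37 for Abcg1 and -0.16 for Fasn. In the same fit the germ-free effect after insulin was 0.27 for Lss, 0.013 for Nsdhl, 0.16 for Hsd17b7, 0.60 for Idi1, -0.73 for Fasn, -0.32 for Acaca and -0.67 for Thrsp, and its mean over treatments was 0.0051 for Sc5d, -0.65 for Fasn, -0.33 for Acaca, -0.45 for Thrsp and -0.13 for Lipe. Insulin in germ-free mice gave 0.75 for Idi1, -0.40 for Mylip, 0.46 for Abcg1 and -0.63 for Fasn there. With the negative control covariate, the mean germ-free effect was 0.10 for Sc5d, -0.45 for Fasn, -0.54 for Acaca, -0.58 for Elovl6, -0.057 for Thrsp, 0.090 for Coq2, -0.18 for Fdx1 and -0.038 for Nr5a1, after insulin it was -0.050 for Elovl6, and after saline it was -1.54 for Idi1 and -1.72 for Npc1. The cause was not tested. No paired analysis was possible because the replicate numbers run from 1 to 12 over the groups and no number occurs in 2 of them. Leaving out dim probe sets removed Mvk, Insig2 and Abcg1, which have no value there. With 3 arrays a group, small changes and genes near the negative controls, such as Mvk, Insig2 and Abcg1, are measured poorly.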
